A study of Mus musculus with 12 samples.

Results

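Amphiregulin (Areg), epiregulin (Ereg), heparin-binding EGF-like growth factor (Hbegf), betacellulin (Btc), transforming growth factor alpha (Tgfa) and their receptor Egfr were followed in T cells. The cultures were of Th9 cells, which make IL-9, Th2 cells and Treg cells. The 6 genes were taken by the gene name printed in the array scanner files, with every probe of each name. They had 14 probes, and the array as a whole named 27597 genes. Of these 14 probes, 8 had a usable signal and 4 were not well above background on any array. The 8 usable probes represented 4 of the 6 genes, namely Areg, Hbegf, Tgfa and Egfr, which were tested. Ereg and Btc were each well above background on 2 of 12 arrays and did not pass the filter on dim probes.

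The cells were naive CD4+CD62L+ T cells of C57BL/6 mice, purified magnetically from lymph nodes and spleen. All cultures began with plate-bound anti-CD3 and soluble anti-CD28, and were expanded at day 3. Th9 cultures received IL-4 at 20 ng/ml, TGF-β at 2 ng/ml and an antibody to IFN-γ. Th2 cultures received IL-4 and the antibody to IFN-γ, without TGF-β. Treg cultures received TGF-β and an antibody to IL-4, with IL-2 added at the expansion. RNA was taken at day 5. The last group was Th9 cells given 1 µg/ml anti-CD3 for a further 6 h at that point, called stimulated Th9 cells below. Each group had 3 arrays. The labels name no sort at the end of culture, so each array reads a whole culture. They do not say whether replicates came from separate mice or cultures, so p-values measure the spread between these arrays, which may be technical.

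EGF family ligands are made as membrane-anchored precursors, and metalloproteinases cut them free to bind receptors of the ERBB family on the same or neighbouring cells. Amphiregulin from T cells and innate lymphoid cells is known for its part in tissue repair and in defence against worms, and regulatory T cells in injured tissue can secrete it. Binding to EGFR, a receptor tyrosine kinase better known in epithelium than in lymphocytes, starts Ras, ERK and PI3 kinase signalling.

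The sequences that carried the signal are shown here because the Areg and Egfr results rest on them. The Areg probe (A_52_P482897, design accession NM_009704) lies at chr5:92216264-92216323 on the plus strand of mm8, the build of the array design. The Egfr probe used for the gene-level test (A_52_P56471, NM_007912) lies at chr11:16783545-16783604 on the plus strand of mm8. Exon and UTR annotation of mm8 was not used here. Each probe has 60 bases, printed 5′ to 3′.
Areg probe: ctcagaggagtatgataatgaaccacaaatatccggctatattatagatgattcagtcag
Egfr probe: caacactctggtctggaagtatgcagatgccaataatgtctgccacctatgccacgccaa

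Promoters came from RefSeq on GRCm38.p6, where Areg, Btc, Tgfa and Egfr matched by symbol (4 of the 6 genes). Each entry held 250 bases before the start and 50 after it. The 250 bases before the start are printed for Areg and Egfr, at chr5:91139349-91139598 and chr11:16751953-16752202, both on the plus strand. Capitals mark the letters TGACGTCA, the palindrome bound by CREB family factors.
Areg promoter: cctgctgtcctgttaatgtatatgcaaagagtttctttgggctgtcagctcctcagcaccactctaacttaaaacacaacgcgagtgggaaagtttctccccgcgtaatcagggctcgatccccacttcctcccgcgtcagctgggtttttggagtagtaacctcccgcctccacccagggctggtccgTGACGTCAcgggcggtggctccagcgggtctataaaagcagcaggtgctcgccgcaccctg
Egfr promoter: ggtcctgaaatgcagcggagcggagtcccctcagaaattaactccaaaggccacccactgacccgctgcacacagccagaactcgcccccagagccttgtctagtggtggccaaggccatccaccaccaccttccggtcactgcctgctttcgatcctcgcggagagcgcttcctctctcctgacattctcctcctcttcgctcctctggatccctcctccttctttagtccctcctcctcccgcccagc

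The Areg promoter held TGACGTCA once, beginning 61 bases before the start. Of 32851 promoters in the table, 1.79% held these letters. The promoters of Egfr, Tgfa and Btc did not hold them. The letters TATAAA began 31 bases before the Areg start, and 13.6% of promoters had them on either strand. The AP-1 letters TGANTCA, searched on both strands, were in none of the 4 promoters and in 7.81% of all promoters. The letters GGAAA, the core of NFAT sites, were in the Areg and Btc promoters and in 61.3% of all promoters on either strand. A match of letters is a description only.

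The arrays were of like quality. Between 59.9% and 63.7% of probes were well above background, the 75th percentile of intensity ran from 520.9 to 795.6, and arrays of a group correlated at 0.9881 to 0.9954 across probes. Levels below are log2 intensities with the array's own 75th percentile set to 0. The lowest level counted as well above background lay between -6.28 and -5.78, depending on the array. All 9 CD4 T cell markers were well above background on every array. Th9 arrays lay on slide 3 and Th2 arrays on slide 1, and Treg and stimulated arrays were spread over 2 slides each, so no slide held Th9 with Th2 or with Treg. All 11 tested genes of a T cell receptor response list were higher in stimulated than in unstimulated Th9 cells, among them Egr1 (5.24 ± 0.73 SE on the log2 scale, limma adjusted p = 9.77e-05). Of all genes, 32.8% were higher.

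Areg was read above background only in stimulated Th9 cells. Its level in the 3 stimulated arrays was -0.77, -0.90 and -0.99, at intensities of 278.5 to 349.4. In unstimulated Th9 cells it was -8.26, -7.97 and -8.15, at intensities of 2.201 to 2.597. In Th2 cells it was -6.70, -6.36 and -7.82, and in Treg cells it was -7.90, -7.55 and -8.22. None of the 9 unstimulated arrays was well above background, and no stimulated array overlapped any of them.

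After stimulation of Th9 cells, Areg RNA was at least 37.1-fold higher. This bound sets the mean of the stimulated arrays against the lowest signal that counted as above background on each unstimulated Th9 array. The measured means were -0.89 ± 0.11 (SD, n = 3) and -8.13 ± 0.15 (SD, n = 3). The fitted difference was 7.24 ± 0.32 (SE), with a 95% interval of 6.53 to 7.95 and a limma adjusted p of 1.3e-07. The probe passed the filter on dim probes only through its 3 stimulated arrays, and the exact size is measured against signals at the floor. Without that filter the adjusted p was 2.01e-07. In whole cultures, more cells carrying a transcript and more transcript per cell cannot be told apart. On the only slide that held both groups, stimulated array 3 exceeded the mean of the Th9 arrays by 7.13. Mast cells and basophils are another known source of amphiregulin. Of 11 of their markers, 3 were well above background on all 3 stimulated arrays (Fcer1a, Prss34 and Cma1) and 7 on none, among them Kit and Cpa3. The proteases Mcpt1, Mcpt2, Tpsab1 and Tpsb2 were not above it on any of the 12 arrays. The summed linear level of the 11, in units of each array's 75th percentile, was 0.199 to 0.252 in stimulated and 0.282 to 0.333 in unstimulated Th9 arrays. Of the 6 tested, 0 were called higher after stimulation and 1, Kit, was lower, where 32.8% and 30.1% of all genes were.

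Markers of other cell types moved with stimulation as well, where 32.8% of all genes were called higher and 30.1% lower. The same sum for 8 CD8 T and NK cell markers was 7.4 to 33 in stimulated and 35.6 to 46.4 in unstimulated Th9 arrays, and 5 of 7 tested were lower. Ncr1, a marker in this list, was above background on none of these arrays. For 11 epithelial and stromal markers it was 0.999 to 1.16 against 6.39 to 7.16, with 6 of 8 tested lower and 1 higher. Of these, Krt18 had the highest mean in unstimulated Th9 cells, 2.21, against -1.04 in stimulated ones. Krt8, Col3a1 and Dcn were not above background on any Th9 array, stimulated or not. For 10 B cell markers it was 0.786 to 2.63 against 5.34 to 7.06, with 6 lower. Whether such cells were present was not tested, nor was their part in the differences after stimulation. The CD8 T and NK cell sum was 17.8 to 23.5 in Th2 arrays, below Th9, and its part in the Th9 and Th2 differences was not tested.

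**Figure D1:**
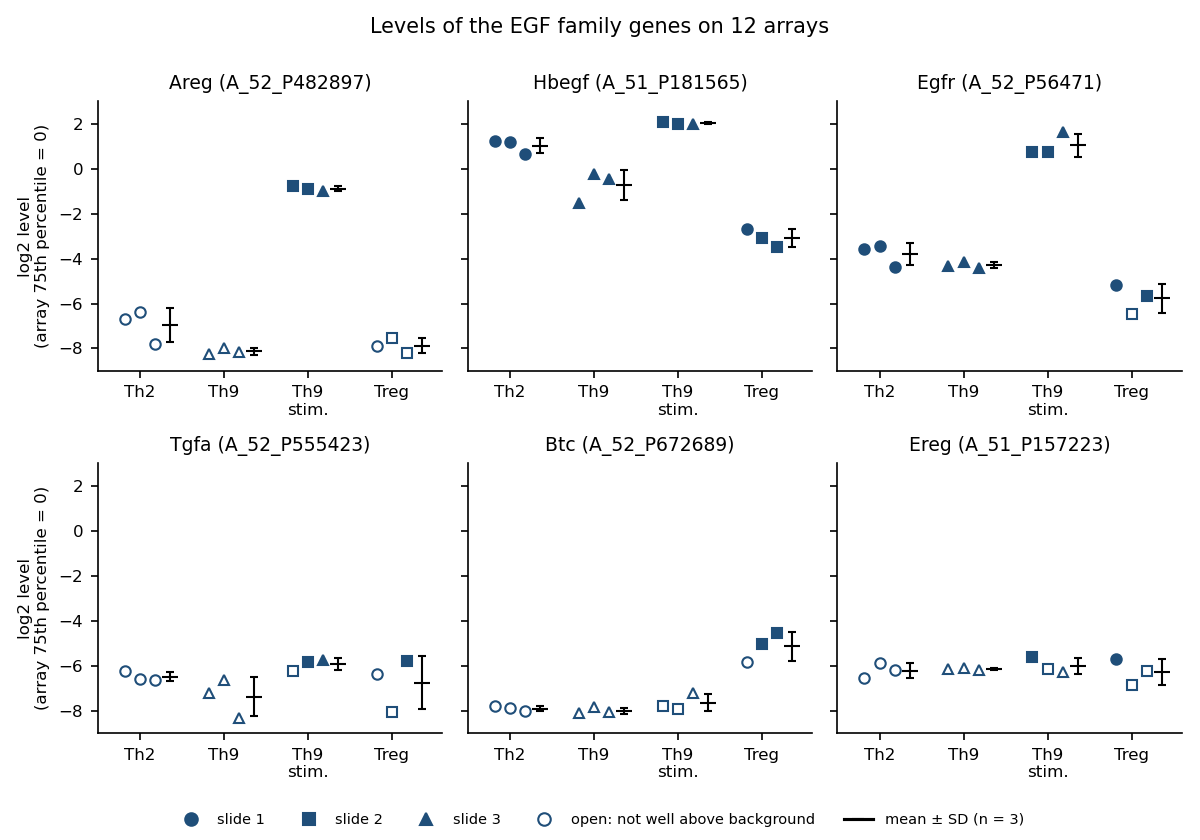
Levels of the 6 genes on the 12 arrays, by the probe of each gene with the highest mean level (y axis: log2 level with the array's 75th percentile at 0; x axis: group; marker shape: slide; open symbols: not well above background; bars: mean and SD, n = 3). Areg is filled only in stimulated Th9 cells, from -0.99 to -0.77, while Hbegf is filled on all 12 arrays.

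Between the unstimulated groups, Areg gave no interpretable fold. All 9 of those arrays lacked a signal well above background, so the differences compare signals at or under the floor. The fitted Th9 minus Th2 difference was -1.17 ± 0.32 (SE; limma adjusted p = 0.0341), and the Th2 minus Treg difference was 0.93 ± 0.32 (SE; adjusted p = 0.0267). Both passed the threshold of 0.05 in this fit. Neither did when slide was a fixed term, where the adjusted p was 0.726 and 0.152. With normexp background correction the Th2 minus Treg difference was -0.00759 (limma adjusted p = 0.961). That setting adds an offset of 50, while the Areg intensities in Th2 cells were at most 6.566. It therefore compresses differences between signals this dim and cannot decide whether this one is real. The Th9 minus Treg difference was -0.24 ± 0.32 (SE; adjusted p = 0.536), with a 95% interval of -0.94 to 0.47.

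Hbegf, a ligand of EGFR and ERBB4 whose membrane precursor is also known as the diphtheria toxin receptor, was the only ligand of the 5 that was well above background on all 12 arrays. Its probe A_51_P181565 (NM_010415) read 2.07, 1.98 and 2.01 in stimulated Th9 cells. In Th2 cells it read 1.24, 1.17 and 0.64. Unstimulated Th9 cells gave -1.51, -0.22 and -0.46, and Treg cells gave -2.70, -3.09 and -3.47. The order was therefore stimulated Th9, Th2, Th9 and Treg, and no group overlapped its neighbour. The difference between stimulated Th9 and Th2 cells was not tested.

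Hbegf rose with stimulation and differed between all 3 resting cultures. Stimulated Th9 cells exceeded unstimulated ones by 2.75 ± 0.32 (SE), or 6.72-fold, with a limma adjusted p of 2.57e-05. The difference within slide 3 was 2.74. Th9 cells lay below Th2 cells (-1.75 ± 0.32 SE on the log2 scale), 3.36-fold lower (adjusted p = 0.00535). When slide was a fixed term this difference was -1.16 and its call was lost (adjusted p = 0.641). Th9 cells exceeded Treg cells by 2.36 ± 0.32 (SE), or 5.12-fold (adjusted p = 9.27e-05). Th2 cells exceeded Treg cells by 4.10 ± 0.32 (SE), or 17.2-fold (adjusted p = 1.87e-06), and by 3.72 within slide 1.

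Comparisons with Treg cells also came with a difference in other cells' markers. The summed level of the 10 B cell markers was 57.8 to 80.1 in Treg arrays, 5.34 to 7.06 in Th9 arrays and 2.92 to 4.79 in Th2 arrays. The same sum for 12 myeloid markers was 12 to 13.7 in Treg arrays and at most 4.07 elsewhere. Their part in the Treg differences was not tested. All 10 B cell markers were well above background on the 3 Treg arrays. So were 9 of the 12 myeloid markers, Lyz2 and Mpeg1 among them, while S100a8, S100a9 and Siglech were above it on none.

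Tgfa, the ligand closest to EGF in receptor use, stayed near the floor. Probe A_52_P555423 read -6.24, -5.84 and -5.74 in stimulated Th9 cells, where 2 of 3 arrays were well above background. Unstimulated Th9 cells gave -7.20, -6.62 and -8.31, none of them well above background. These ranges did not overlap. The fitted difference was 1.44 ± 0.54 (SE, limma adjusted p = 0.0382). Set against the floor, as for Areg, the stimulated mean gave a bound of at least 1.12-fold. The call was lost in 4 of 10 alternative settings and without any of 5 single arrays: Th9 replicates 1 and 3 (1.53 and 0.97) and stimulated replicates 1, 2 and 3 (1.59, 1.39 and 1.34). The other Tgfa probe, spotted 10 times per array, never rose well above background. No other comparison called Tgfa, and in Treg cells 1 of 3 arrays was well above background.

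Btc, a ligand of EGFR and ERBB4, passed the background call on Treg arrays alone. Its probe A_52_P672689 read -5.83, -5.05 and -4.56 in Treg cells, with the last of these 3 arrays and the middle one well above background. The highest of the other 9 arrays was -7.22, in stimulated Th9 cells, so Treg arrays did not overlap the rest. Against the floor, Treg cells were at least 1.94-fold above Th9 cells and at least 1.65-fold above Th2 cells, as bounds outside the filtered test. Without the filter on dim probes the differences were -2.86 ± 0.29 (SE; limma adjusted p = 1.81e-05) for Th9 minus Treg and -2.77 ± 0.29 (SE; adjusted p = 2.23e-05) for Th2 minus Treg. The second Btc probe stayed under the background call throughout, and the Treg arrays carried the B cell and myeloid markers given above.

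Ereg, a ligand of EGFR and ERBB4 that lies beside Areg, gave no usable signal. Probe A_51_P157223 was above background on stimulated array 1 (-5.62) and Treg array 1 (-5.71), and its group means were between -6.27 and -6.02. This probe was designed on a cDNA clone and lies on the minus strand of mm8, while the probe for the RefSeq transcript NM_007950 lies on the plus strand. That RefSeq probe had no array well above background.

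Egfr, the receptor of these ligands, rose with stimulation on every probe that gave a signal. Probe A_52_P56471 read 0.74, 0.76 and 1.63 in stimulated Th9 cells. Unstimulated Th9 cells gave -4.33, -4.16 and -4.42, and Th2 cells gave -3.59, -3.45 and -4.36. Treg cells gave -5.17, -6.47 and -5.68, with the second not well above background. The stimulated arrays stood apart from all others, Th9 and Th2 overlapped, and Treg lay lowest without overlap. Among the stimulated arrays, array 3, the one on slide 3, exceeded the mean of the other two by 0.88.

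Stimulated Th9 cells exceeded unstimulated ones for Egfr by 5.35 ± 0.36 (SE), or 40.7-fold, with a limma adjusted p of 6.93e-07. Within slide 3 the difference was 5.93. Th9 and Th2 cells differed by -0.51 ± 0.36 (SE), with a 95% interval of -1.30 to 0.29 (adjusted p = 0.379). With the mean over all its usable probes, Egfr was called lower in Th9 (-0.64, adjusted p = 0.0399). Th9 cells exceeded Treg cells by 1.47 ± 0.36 (SE; adjusted p = 0.00469). Normexp correction (0.27, adjusted p = 0.214) and a fixed slide term (0.89, adjusted p = 0.207) each ended that call. The normexp offset of 50 exceeds the intensities of this probe in Th9 cells, at most 39.63, and in Treg cells, at most 15.22. It thus compresses their difference. Th2 cells exceeded Treg cells by 1.97 ± 0.36 (SE; adjusted p = 0.000749), and by 1.37 within slide 1.

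The array design assigns the Egfr probes to different transcripts. A_52_P56471 and A_51_P392242 were designed on the transcript named variant 2, and A_52_P674338 and A_52_P106259 on variant 1. A_52_P175190 and A_52_P5855 were designed on cDNA clones. A_51_P392242 rose by 5.99 ± 0.33 (SE) after stimulation, and A_52_P106259 by 6.29 ± 0.38 (SE). A_52_P674338 was above background only in stimulated cells and was at least 25.7-fold higher there. A_52_P175190 behaved likewise, with a bound of at least 4.68-fold. These last 2 probes passed the filter on dim probes only through the stimulated arrays. For the 3 probes that were above background in both groups, the limma adjusted p over all probes ranged from 2.62e-07 to 7.3e-07. Probes of both transcript designs therefore carried the rise. Whether each probe is specific to its transcript was not checked. A_52_P5855 had 0 of 12 arrays well above background.

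**Figure D2:**
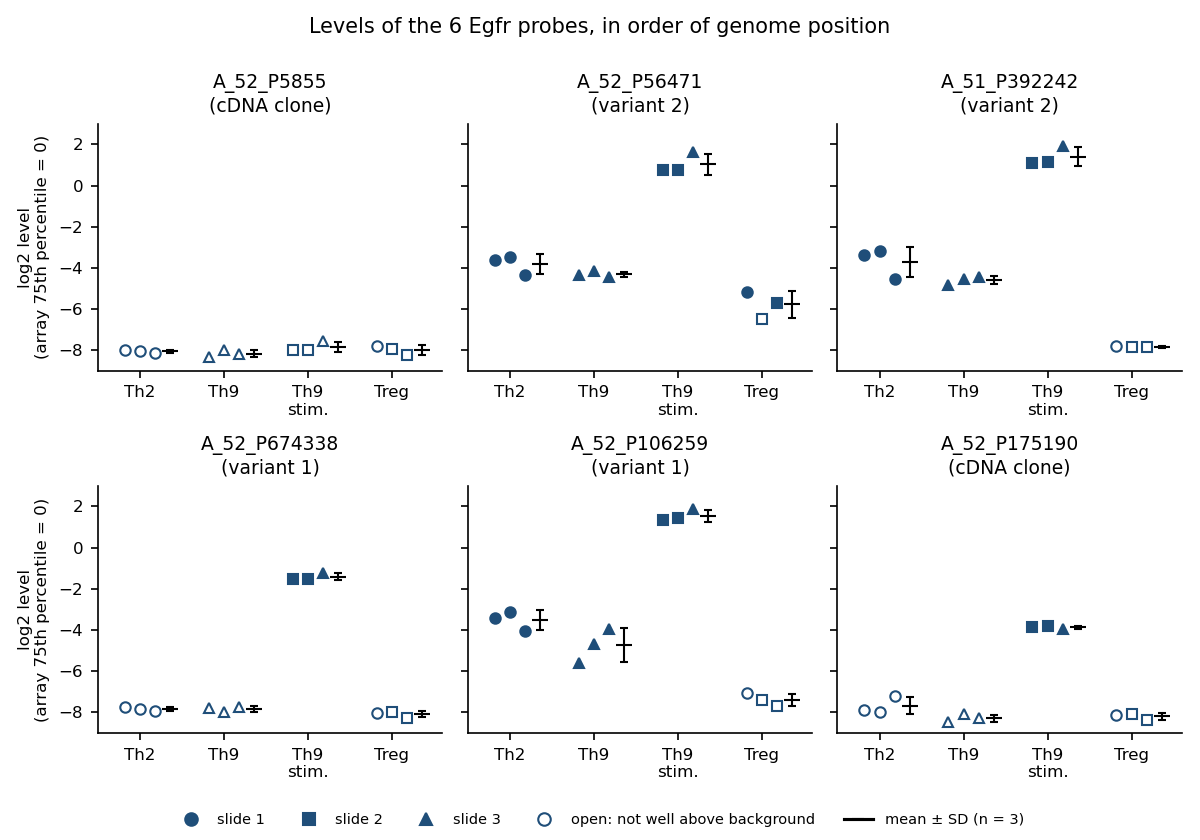
Levels of the 6 Egfr probes on the 12 arrays, in order of genome position (y axis: log2 level with the array's 75th percentile at 0; x axis: group; symbols and bars: slide, background call, mean and SD, n = 3). The stimulated arrays are highest on 5 probes, and A_52_P5855 is open on all 12 arrays.

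In resting cells the Egfr probes did not all read the same. A_51_P392242 and A_52_P106259 were above background on all Th9 and Th2 arrays and on no Treg array. By these probes Th9 cells were at least 2.63-fold and 2.38-fold above Treg cells. The same probes put Th2 cells at least 4.91-fold and 5.51-fold above Treg cells. The 2 probes seen only after stimulation gave no resting level above the floor.

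Read against the whole array, the calls were as follows. After stimulation, 4 of 4 tested genes were called higher, where 62.9% of 17912 genes were called at an adjusted p under 0.05, 32.8% higher and 30.1% lower. Between Th9 and Th2, 2 of 4 were called, Areg (at the floor in both groups) and Hbegf, both lower in Th9, where 15.3% of genes were called, 7.06% higher and 8.21% lower. Between Th9 and Treg, 2 of 4 were called higher, Hbegf and Egfr, where 62.9% of genes were called, 28.3% higher and 34.6% lower. Between Th2 and Treg, 3 of 4 were called higher, Hbegf, Egfr and, again at the floor, Areg, where 61.7% of genes were called, 28.9% higher and 32.8% lower. Areg entered these counts only through its stimulated arrays, as said. Tgfa passed the filter on dim probes with 2 stimulated arrays and 1 Treg array. Without that filter its limma adjusted p after stimulation was 0.0558. The counts therefore describe the genes and support nothing further. These comparisons share arrays: Th9 enters 3 of them, and Th2 and Treg 2 each. The median log2 difference of all genes after stimulation was 0.02. Scaling on probes above background on all arrays put the median of all genes at -0.14, and normexp put it at 0.12.

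**Figure D3:**
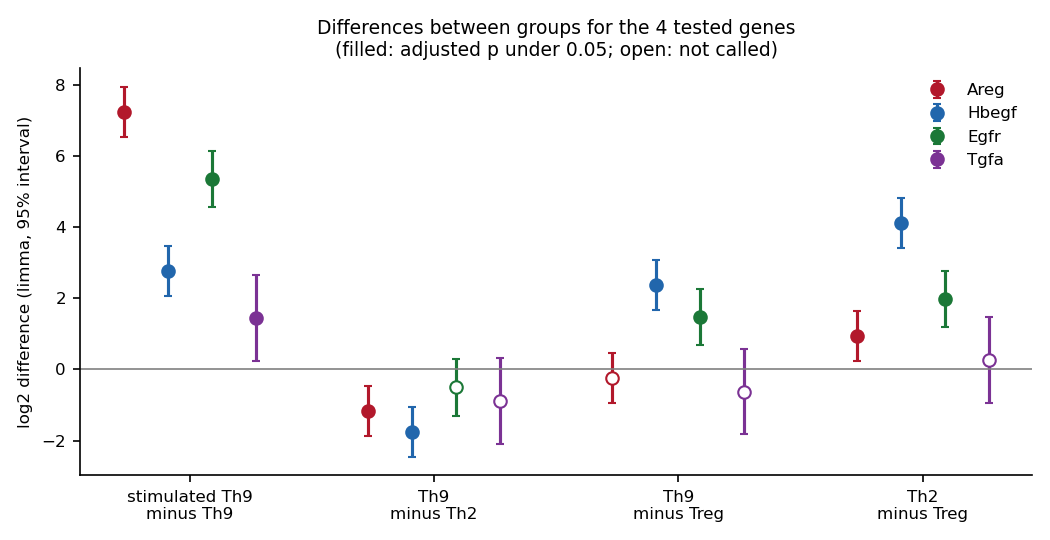
Log2 differences of the 4 tested genes in the 4 comparisons (y axis: limma estimate with its 95% interval; x axis: comparison; filled: adjusted p under 0.05). Areg and Egfr stand highest after stimulation, at 7.24 and 5.35; the 3 other Areg points compare signals that were not well above background.

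Areg shares a stretch of chromosome 5 with other EGF ligand genes. In mm8 the probes from Epgn to Btc covered Epgn, Ereg, Areg and Btc, with 6 probes in all. Epgn (epigen) lay 106 kb before the Areg probe and was above background on all 12 arrays. Its difference after stimulation was 0.25 ± 0.19 (SE; limma adjusted p = 0.273). The Ereg probes lay 89.2 and 48.4 kb before Areg, and the Btc probes 216.9 and 217.9 kb after it. Of the 2 genes tested in this stretch, only Areg was called.

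**Figure D4:**
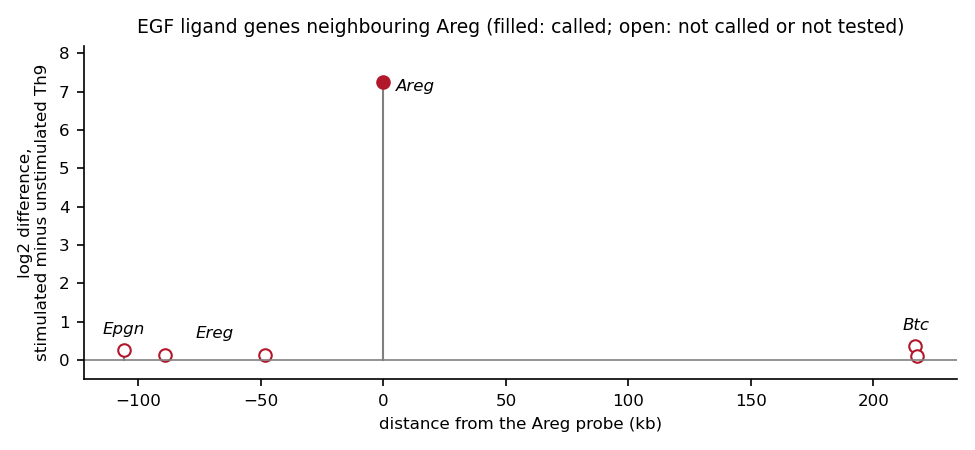
Difference between stimulated and unstimulated Th9 cells for the EGF ligand probes around Areg (x axis: distance from the Areg probe in kb; y axis: log2 difference; filled: called, open: not called or not tested). Areg stands at 7.24, and the other 5 probes lie between 0.09 and 0.36.

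Among the remaining EGF-type ligands and ERBB receptors, none was called higher after stimulation, where 32.8% of all genes were higher and 30.1% lower. Of 6 further ligands listed, 4 were tested (Egf, Epgn, Nrg1 and Nrg4), and limma called 0 of them in any of the 4 comparisons at an adjusted p under 0.05. At an unadjusted p under 0.05 the counts were 1 after stimulation, 1 for Th9 against Th2, 0 for Th9 against Treg and 0 for Th2 against Treg. After stimulation, normexp called 1 higher and scaling on probes above background on all arrays called 1 lower. Of all genes, the main fit called 15.3% to 62.9% in the 4 comparisons. The usable Nrg1 probe was above background on 3 stimulated and 0 unstimulated Th9 arrays, and on 1 Th2 and 1 Treg array. Its difference after stimulation was 0.67 and was not called. Of the other receptors, Erbb3 fell after stimulation by 0.71 on the log2 scale (limma adjusted p = 0.00144) and Erbb4 was not called. The probes standing for Erbb3 and Erbb4 were designed on predicted transcripts. Of 3 usable Erbb3 probes, 2 were called lower and 0 higher. A usable Erbb3 probe of the RefSeq transcript was above background on 3 unstimulated and 0 stimulated Th9 arrays. Its fitted difference was -1.20, measured against the floor. None of the 3 Erbb4 probes of the RefSeq transcript, and neither Erbb2 probe, rose well above background.

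A list of genes acting on ligand shedding held both proteases and their inhibitors. Of 14 listed, 11 were tested, 8 were higher after stimulation and 1 was lower, where 32.8% and 30.1% of all genes were, with a median of 0.81 against 0.02 for all genes. The 8 included Timp1 and Timp2, which are metalloproteinase inhibitors. Their effect on shedding of these ligands was not tested. Timp1 rose by 4.13 ± 0.17 (SE; limma adjusted p = 1.12e-07). Furin, the convertase that matures ADAM proteases, rose by 2.64 ± 0.16. Rhbdf2 and Rhbdf1, the iRhoms that carry ADAM17 to the cell surface, rose by 1.39 and 1.38. Adam17, the main sheddase of amphiregulin, was added here for its role with its value known, and rose by 0.33 ± 0.12 (SE; adjusted p = 0.0335). Frmd8, which holds iRhoms at the surface, fell by 0.97 and was likewise added as the lone gene lower.

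Of 15 tested inhibitors of EGFR, 5 were higher and 4 lower, near the shares of all genes called (32.8% and 30.1%). Ptprj, a receptor tyrosine phosphatase, rose by 2.62 ± 0.14 (SE), and the Ras and ERK feedback inhibitors Spry1 and Spred1 rose by 2.34 and 1.70. Cbl, a ubiquitin ligase of activated receptors, fell by 1.56. Rnf41, another ubiquitin ligase, was added here with its values known, since its probes disagreed, 1 higher and 1 lower. Of 23 tested signalling genes, 9 were higher and 11 lower, or 6 and 13 with quantile normalization. Hras rose by 2.36, while Plcg1 (phospholipase C gamma 1) fell by 2.45 and Mapk3 (ERK1) by 2.22. Gab2, an adaptor, was at least 3.03-fold lower and was not well above background on any stimulated array.

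Receptors and transcription factors linked to Areg induction in other cells were counted beside the same shares of all genes. Of 22 tested, 8 were higher, near the 32.8% of all genes, and 4 lower after stimulation. Quantile normalization gave 5 and 5, and scaling on probes above background on all arrays gave 6 and 8. Fosl1, an AP-1 subunit, rose by 6.61 ± 0.28 (SE; limma adjusted p = 1.22e-07), and Il1rap, the shared co-receptor for IL-1 and IL-33, rose by 2.22. Ahr, the aryl hydrocarbon receptor, fell by 1.58 and Crem, a CREB family factor, by 1.53. Of 7 proteins known as partners of HB-EGF, 4 were higher and 1 lower, with the tetraspanins Tspan4 and Cd9 up by 1.44 and 1.15.

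**Figure D5:**
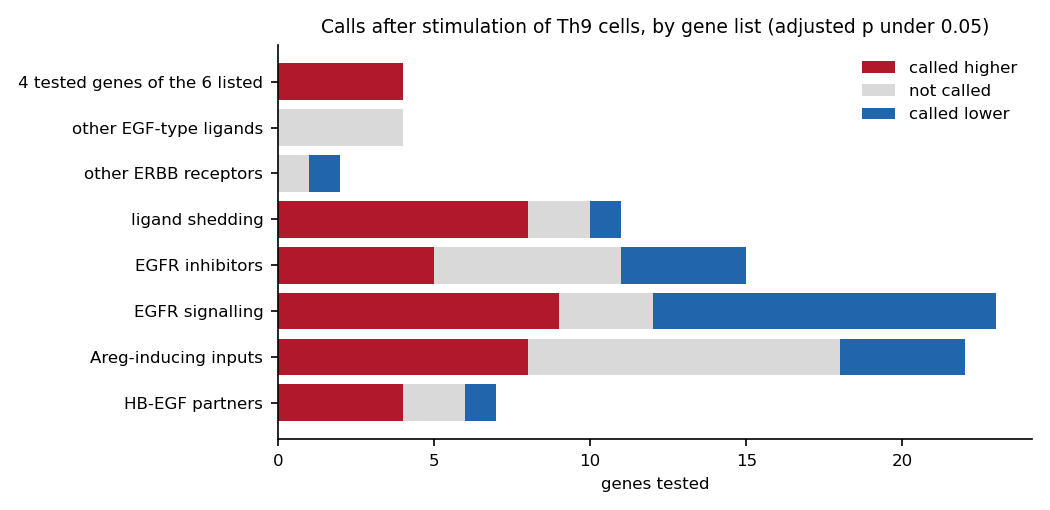
Genes tested in each list and how many were called higher, lower or not called after stimulation of Th9 cells (x axis: number of genes; limma, adjusted p under 0.05). All 4 tested genes of the 6 were higher, 8 of 11 shedding genes were higher, and EGFR signalling genes split into 9 higher and 11 lower.

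Between Th9 and Th2 cells, where 15.3% of all genes were called, the lists gave these counts. Shedding genes had 1 higher and 2 lower of 11, with Adam8, a metalloproteinase, lower in Th9 (-1.66 ± 0.21 SE). Among inhibitors, Lrig1, which lowers EGFR protein, was 2.31 ± 0.21 (SE) higher and Spred1 lower (-0.75). Of 3 usable Spred1 probes, 1 was called lower and 0 higher. Signalling genes had 3 higher and 2 lower of 23, with 6 higher under quantile normalization. Src, a cytoplasmic tyrosine kinase, was higher by 3.16 ± 0.17 (SE; limma adjusted p = 6.34e-06). Of 22 inducing inputs, 5 were higher and 3 lower. Ahr was higher by 2.97 and Il1rl1, the IL-33 receptor, by 2.31, while Fosl1 was lower (-1.65).

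Against Treg cells more were called, in the lists as among all genes, beside the marker sums given above. Between Th9 and Treg cells, 28.3% of all genes were higher in Th9 cells and 34.6% lower. Of 22 inducing inputs, Th9 cells had 14 higher and 4 lower. Atf3, a CREB family factor, was higher by 5.86 ± 0.26 (SE; limma adjusted p = 5.05e-08), Ahr by 4.01 and Irf4 by 3.52. Il18r1, the IL-18 receptor, was lower (-5.24). Of 15 inhibitors, 7 were higher and 5 lower, with Errfi1, a direct EGFR kinase inhibitor, higher by 2.71 and Cblb, a ubiquitin ligase, lower (-2.77). Th2 cells against Treg cells gave the same count of 14 inducing inputs higher, and 6 lower, where 28.9% and 32.8% of all genes were. Cd9, a partner of HB-EGF, was lower in Th9 and in Th2 than in Treg cells (-4.01 and -3.67).

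Genes whose levels followed each member most closely were named over the 12 arrays as a description. For Areg they were Rrp7a, Trmt1, Cox19, Atp5md, Usp54 and Polr2k, with Pearson r near 0.993 for each. Each was above background on all 12 arrays, with changes after stimulation of 1.27 to 2.53, so the likeness is of shape and not of size. For Hbegf they were Mfsd2a (r = 0.987), Mpp6, Il12rb1, Fnip2, Hsp90aa1 and Spred1. For Egfr they were Fmn2 (r = 0.990), Bax, Ccn4, Tfrc, Thoc3 and Map3k6. Areg and Egfr correlated at 0.958, Hbegf and Egfr at 0.828 and Areg and Hbegf at 0.724. All 12 points share the 3 stimulated arrays, which set much of these values, and 9 of the 12 Areg points lie at the floor.

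Genes whose promoter held TGACGTCA, as that of Areg does, were also counted. Of 384 such tested genes, 39.8% were higher after stimulation, with a median log2 difference of 0.10. Of 11297 tested genes with a promoter entry, 34.4% were higher, with a median of 0.01. No test was made of this difference.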

How the data were processed

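RNA of 12 samples, 3 in each of 4 groups, was read on 1-colour Agilent arrays with Cy3-labelled cRNA. Per the file headers, the authors' deposited intensities came from Agilent Feature Extraction 10.5.1.1, with background subtracted and no scaling between arrays. The deposited log2 series table, whose centring and scaling method is not given in the sources used here, served as an alternative. Its columns correlated with the scanner values at 0.99958 or more and had medians of 5.171 to 5.174. The scanner's flags for background, saturation (0 probes) and outlier spots are deposited as well. The number of arrays limits the precision.

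Each log2 intensity was taken relative to its array's 75th percentile. Control and outlier spots were left out and spots of a probe were averaged. A probe was kept if well above background on at least 3 of 12 arrays, and the probe with the highest mean stood for its gene, which left 17912 genes. limma 3.58.1 in R 4.3.3 fitted 4 group means, with Benjamini-Hochberg adjustment over all genes and 0.05 as threshold. The script was checked on simulated data. Of 41174 probes, 24375 were named through RefSeq accessions on GRCm38.p6, 6301 by current symbol and 2426 by older symbol, and 8072 kept the design's name.

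The 6 genes and all lists were chosen with earlier results of these data known. The text names all 6 genes with every probe, up to 4 called genes with the largest change in each list per comparison, and the 6 genes most correlated with each member that was above background in a whole group; genes added beyond this are marked. Alternatives covered background correction, scaling, filters, probe choice, slide, replicate number and leaving out each array. Other probes of Egfr and differences within a slide were added after seeing the data. Whether equal replicate numbers mark paired samples is not known. Between arrays of the same number the correlation of deviations ran from -0.022 to 0.412, over 0.1 in 8 of 18 pairs. These values alone cannot decide it, and the main fit used no pairing.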

Additional observations from a re-analysis of the deposited data

How the results depend on the processing

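The rise of Areg after stimulation kept its direction and call in all 11 alternative settings (2.78 to 7.24, adjusted p 1.08e-11 to 4.33e-05) and without any single array (7.17 to 7.32). The same held for Egfr (3.94 to 5.93) and Hbegf (2.59 to 2.75). Without the filter on dim probes Btc, otherwise left out, was called lower in Th9 and Th2 than in Treg cells (-2.86 and -2.77), and Ereg was not called (adjusted p 0.724 to 0.918). Normexp correction, with its offset of 50, gave the low ends for Areg and Egfr.

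Areg differences between resting groups, all at the floor, did not hold in every setting. The calls for Th9 minus Th2 and for Th2 minus Treg were each kept in 8 of 11 alternative settings. Those that lost them are given here. Th9 minus Th2 was -0.303 with normexp (adjusted p = 0.0695), -1.165 with only the groups compared (0.0933), -1.029 with a slide block (0.726) and -1.597 to -0.866 without single arrays. Th2 minus Treg was -0.00759 with normexp (0.961), 0.928 with only the groups compared (0.0872), 0.942 with a slide block (0.152) and 0.629 to 1.36 without single arrays. Th9 minus Treg was -0.311 with normexp, past the threshold (0.0269), and -0.401 to -0.0657 without single arrays. The normexp offset of 50 exceeds all resting Areg intensities, so that setting reads them on a compressed scale. The cause of the changes in the other settings was not tested.

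Between Th9 and Th2, the tested genes called fell from 2 to 1 with normexp, to 1 with only the groups compared, to 0 with a slide block and to 1 to 2 without single arrays, 1 being the count without Th2 replicates 1 or 2 or any Th9 replicate. With the mean over a gene's probes it rose to 3, since Egfr was called lower in Th9 (-0.643, adjusted p = 0.0399). The slide block called 232 genes in all, where 2735 were called without it, and normexp called 4297. Without Th2 replicate 1 or 2 or Th9 replicate 1 or 2, 1659, 1635, 1779 and 1624 genes were called. Between Th9 and Treg, the slide block called 1 of the tested 4 and 6224 genes in all, where 11274 were called without it; without single arrays 2 to 3 of the 4 were called. The slide as a random block (correlation -0.00281) changed no call of the 4 genes.

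Reversed values were Egfr Th9 minus Th2 by probe A_52_P674338 (0.0026), Egfr Th9 minus Treg by probe A_52_P175190 (-0.0935), both at the floor, and Tgfa Th2 minus Treg with normexp (-0.0469), a slide block (-0.095) and without single arrays (-0.384 without Treg replicate 2, up to 0.734). Without that replicate Tgfa was called lower in Th9 than in Treg cells (-1.272, adjusted p = 0.0273).

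With the replicate number as a block, which pairs no known samples, Tgfa after stimulation lost its call (1.44, adjusted p = 0.0629); Areg after stimulation stayed at 7.24, and 11373 genes were called where 11271 were without the block.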
